A study of Mus musculus with 8 samples.

Results

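The 4 genes described here, Smad6, Smad7, Smurf1 and Smurf2, encode proteins that restrain SMAD signalling. SMAD4 peaks were taken from the deposited lists when their summit lay inside, or within 100 kb of, the gene body of any of the 4 (RefSeq positions on GRCm38.p6, the assembly behind mm10). This gave 28 of the 4333 peaks of the stimulated list and 12 of the 1133 peaks of the unstimulated list. A member was the nearest protein-coding gene for 15 of the 28 stimulated and 7 of the 12 unstimulated peaks. The rule uses position alone, so heights and widths played no part in it.

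The study mapped SMAD4 by chromatin immunoprecipitation and sequencing (ChIP-seq) in MS1, an established, immortalised mouse endothelial cell line. All cells were serum starved for 24 h. The stimulated groups then received recombinant BMP9/10 at 1 ng/mL, and the unstimulated groups received fresh medium. Each condition had 2 libraries of SMAD4 immunoprecipitate (IP) and 2 of input DNA. The authors pooled those of a kind and called 1 peak list per condition. No value per library was analysed here. KD, an abbreviation that no label spells out, is part of the titles of both stimulated IP libraries, whose other labels read SMAD4 IP of stimulated cells. Stimulated values are those of the libraries so labelled. The lists hold no expression values, and the endothelial identity of the cells was not tested here. The stimulated list rests on 41044888 IP tags and the unstimulated list on 52971023. Heights are given as the summit pileup in RPM, the tags that cover the summit per 1000000 IP tags, each tag counted over 100 bp. Intervals are exact binomial at 95% and cover counting error in the pooled libraries only. With no replicate values there was no test between conditions.

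BMP9 and BMP10 act on endothelial cells through the receptor ALK1, whose activated SMADs enter the nucleus with SMAD4. Smad6 and Smad7 are the inhibitory SMADs: they lack the phosphorylation site of the receptor-activated SMADs, occupy the receptors or SMAD partners, and are themselves known to be transcribed after BMP or TGF-beta signalling. Smurf1 and Smurf2 are HECT-type ubiquitin ligases that bind a proline-rich motif of SMADs. Inhibitory SMADs bring these ligases to the receptors, which are then degraded.

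SMAD4 lay on the annotated start of Smad6 in both conditions, and the sequence there is shown because it carries an inverted repeat of the classical SMAD box at the summit. RefSeq promoter windows (250 bases before to 50 after the start, GRCm38.p6) matched Smad6, Smurf1 and Smurf2. None was available for Smad7, so its start was not searched for motifs. The Smad6 stretch below is chr9:64022056-64022309 on the minus strand, read 5′ to 3′ up to the last base of the repeat, which is in capitals.
Smad6 start: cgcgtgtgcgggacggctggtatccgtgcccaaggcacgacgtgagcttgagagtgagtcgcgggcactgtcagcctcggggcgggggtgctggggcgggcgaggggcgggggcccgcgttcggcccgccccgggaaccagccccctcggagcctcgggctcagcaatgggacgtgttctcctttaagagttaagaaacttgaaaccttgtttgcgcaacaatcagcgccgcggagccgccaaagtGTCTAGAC

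The 8 capital letters, GTCTAGAC, are the palindrome of the SMAD box GTCT and read the same on both strands. They span positions 64022056 to 64022063, with 4 bases before the annotated start at 64022059 and 4 bases from it onward. This start is that of the promoter window. The RefSeq gene body runs further upstream, to 64022085. The stimulated summit was at 64022059, inside the palindrome, and the unstimulated summit was at 64022049, which is 7 bp from it. The palindrome was searched for after this sequence had been read. It occurs in 70 of 32851 promoter windows (0.213%), in 9 of the 731 windows that overlap a stimulated peak (1.23%) and in 4 of the 140 that overlap an unstimulated peak (2.86%). The palindrome itself lies under a stimulated peak in the windows of 5 genes, and in 2 of them the summit fell inside it. Apart from Smad6 this was Atad2b, named after its value was seen.

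The 4 letters GTCT or AGAC alone say little, since 88.0% of all windows hold them on either strand. In the Smad6 window both of their matches lie within the palindrome. GGCGCC, a GC-rich element known from BMP-responsive genes, is absent from the Smad6 window, and 11.9% of all windows and 43.9% of those on a stimulated peak hold it. Other GC-rich forms were not searched for, so their absence is not shown. The Smurf1 window (chromosome 5, 144965781 to 144966080) holds 3 GTCT or AGAC and neither of the longer motifs. The Smurf2 window (chromosome 11, 106920666 to 106920965) holds 4 of the short motif, 2 GGCGCC and no palindrome. Neither Smurf window overlaps a peak of either list. These matches describe letters and were not tested as sites.

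Smad6, the inhibitory SMAD known for its preference for BMP receptors, had the most SMAD4 peaks of the 4 genes. Around its gene body (chromosome 9, 63953076 to 64022085) lay 11 stimulated and 7 unstimulated peaks. For comparison, 36.5% of the 21887 protein-coding genes had any stimulated summit within 100 kb, and 13.1% had any unstimulated one. At least 11 stimulated summits were found for 3 genes in all, and at least 7 unstimulated summits for 1 gene, Smad6 itself. Smad6 was proposed for this description with earlier results in view, so its rank is a description.

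The peak on the Smad6 start had a pileup of 1.17 RPM in stimulated cells and 0.661 RPM in unstimulated cells. The ratio per tag was 1.77 (1.12 to 2.82). In the authors' fold enrichment, the pileup plus 1 over the local background plus 1, this peak had 13.0 in the stimulated list, rank 23 of 4333, and 4.50 in the unstimulated list, rank 386 of 1133. The local background there was 0.0672 RPM in the stimulated list and 0.132 RPM in the unstimulated list, a ratio of 0.509. The median background outside mitochondrial DNA was 0.132 RPM in the stimulated list and 0.155 RPM in the unstimulated list. The fold enrichments at the Smad6 start differ by 2.90 times, more than the pileups do. No interval was computed for fold enrichment, and its rank here goes with a low stimulated background. A neighbouring peak 786 bp outside the gene body (64022756 to 64023025) had 0.755 and 0.453 RPM in stimulated and unstimulated cells, a ratio of 1.67 (0.947 to 2.97). There the local background was 1.81 times as high in the stimulated list, and the fold enrichments were 4.0 (stimulated) and 4.17 (unstimulated), the opposite order to the pileups.

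The upstream side of Smad6 held most of its other peaks, and none lay inside the gene body apart from the one at its start. A pair of peaks 28.1 and 28.6 kb upstream lay inside the non-coding RNA gene 1110036E04Rik, with summits 494 bp apart in the stimulated list and 509 bp apart in the unstimulated list. The first of the pair (64050008 to 64050366) had 1.36 RPM in stimulated and 0.736 RPM in unstimulated cells, with a ratio of 1.85 (1.21 to 2.86), the highest among the shared sites of the 4 genes. The other (64050595 to 64051013) had 1.15 and 0.868 RPM in the same order, a ratio of 1.32 (0.859 to 2.02). The order of these neighbours thus differs between the lists: the first is the taller in stimulated cells and the other the taller in unstimulated cells. Their ratio intervals overlap.

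On the other side, 25.3 kb beyond the far end of Smad6, a shared peak (63927713 to 63928131) had 1.12 RPM in stimulated and 0.774 RPM in unstimulated cells. Its ratio was 1.45 (0.930 to 2.26). Peaks at 8.27 kb (64030225 to 64030610) and 38.3 kb upstream (64060325 to 64060583) were called only in the stimulated list, with 1.36 and 0.633 RPM. The first of these is as tall as the strongest shared Smad6 peak. A further 4 stimulated and 2 unstimulated peaks lay 62.8 to 72.3 kb upstream, inside the non-coding RNA genes Scarletltr and Gm39360, and were closer to the protein-coding gene Lctl. The shared peaks among them had ratios of 1.48 (0.950 to 2.33) and 1.56 (0.962 to 2.56).

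**Figure D1:**
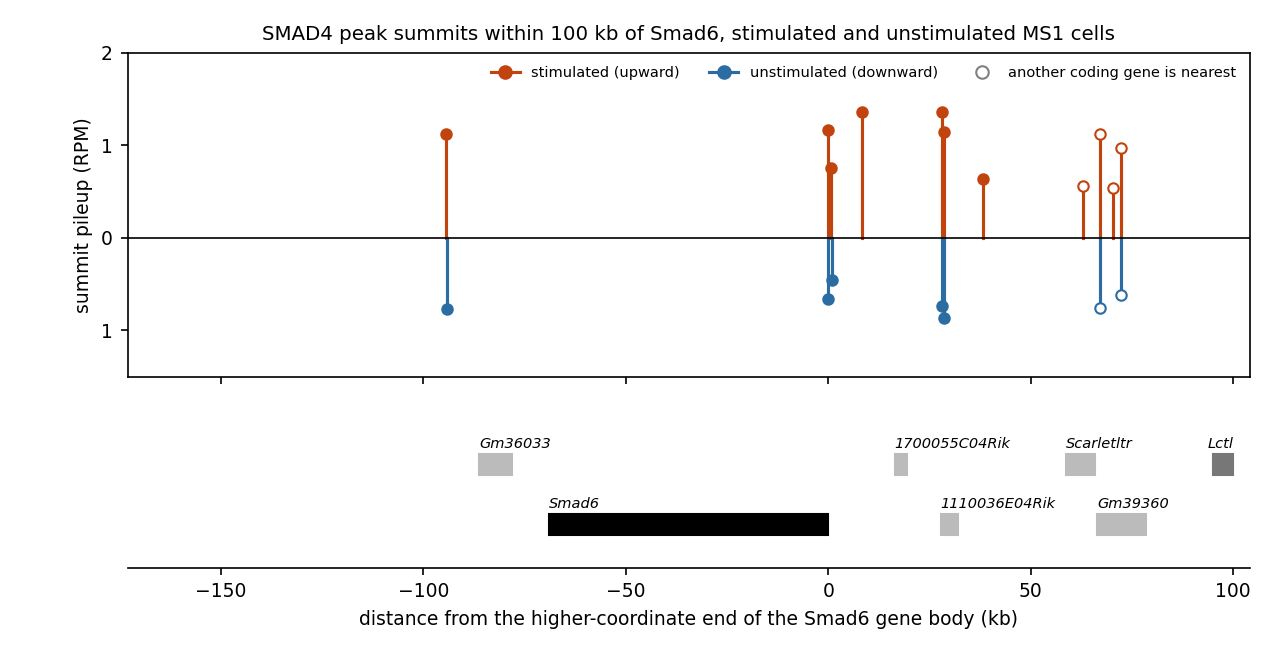
SMAD4 summit pileup in RPM (y axis) at each peak summit within 100 kb of Smad6, against the distance in kb from the higher-coordinate end of the gene body, near the annotated start (x axis). Bars below show Smad6 (black), other protein-coding genes (dark grey) and non-coding RNA genes (light grey). The 11 stimulated summits (upward) lie mostly upstream of the start, and the 7 unstimulated summits (downward) each have a stimulated one above them.

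Smad7, the inhibitory SMAD that acts on BMP and TGF-beta receptors alike, had 10 stimulated and 2 unstimulated peaks around its gene body (chromosome 18, 75367365 to 75395935). At least 10 stimulated summits were found for 7 of the 21887 protein-coding genes, and at least 2 unstimulated summits for 679 (3.10%). Smad7 peaks were lower in pileup than those of Smad6. The median was 0.597 RPM over the 10 stimulated Smad7 peaks, against 1.12 RPM over 11 at Smad6. These medians include 4 peaks at Smad6 and 3 at Smad7 that lay nearer to another gene, and take no account of local background. At the lower-coordinate end of the gene lay the tallest, a broad shared peak (75366438 to 75367227) with 0.975 RPM in stimulated and 0.566 RPM in unstimulated cells, a ratio at percentile 79.5 of all shared pairs. At 790 bp it was the widest of the 28 stimulated peaks, and its 675 bp counterpart was the widest of the 12 unstimulated ones. The local background here was low, 0.0755 RPM in the stimulated and 0.0593 RPM in the unstimulated list.

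The other shared Smad7 peak, inside the gene body (75375594 to 75375769), had 0.365 and 0.359 RPM in stimulated and unstimulated cells. Its ratio of 1.02 (0.482 to 2.12) stood at percentile 2.04 of all 1078 shared pairs outside mitochondrial DNA, each peak being paired once. With 15 stimulated and 19 unstimulated tags at the summit, a difference within that interval was not detectable at this depth.

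Smad7 peaks called only in the stimulated list lay on both sides of the gene. Those at 24.5 kb (75342564 to 75343298), 4.05 kb and 3.36 kb below the lower end had 0.609, 0.585 and 0.365 RPM. The 2 closer ones lay inside the non-coding RNA gene Gm20544, whose annotated body ends just short of Smad7. Another was inside the gene, 191 bp from the lower end (75367379 to 75367606), with 0.487 RPM. The summits of this and the broad peak were 406 bp apart, and whether they are separate sites was not tested. Beyond the other end, a peak at 9.83 kb (75405621 to 75405855) had 0.658 RPM and a fold enrichment of 8.0, although its pileup was below the stimulated median of 0.707 RPM. The local background at this peak was low, at 0.0609 RPM. The last 3 stimulated peaks lay 97.7 to 99.4 kb away inside Ctif, a translation factor gene, at the edge of the window.

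**Figure D2:**
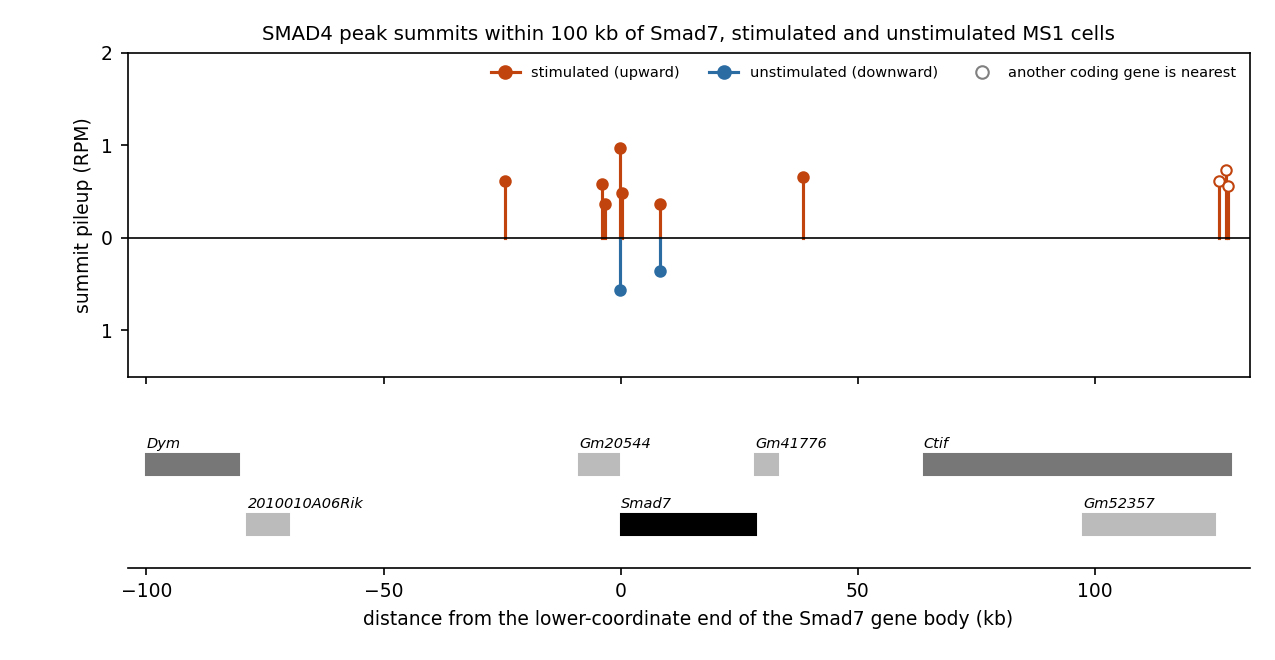
SMAD4 summit pileup in RPM (y axis) at each peak summit within 100 kb of Smad7, against the distance in kb from the lower-coordinate end of the gene body (x axis), with genes drawn as bars. Of the 10 stimulated summits (upward), 2 have an unstimulated one (downward), the tallest at 0 kb and the other inside the gene.

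Smurf1, the ubiquitin ligase first known for degrading BMP-specific SMADs, had 3 stimulated and 0 unstimulated peaks. A stimulated summit without any unstimulated one was the case for 23.6% of protein-coding genes, so Smurf1 does not stand out by this. The peak for which Smurf1 is the nearest gene lay inside its body (chromosome 5, 144898449 to 144898680), 22.1 kb from the end opposite the promoter window. It had 1.32 RPM, more than 9 of the 11 stimulated Smad6 peaks, over the highest local background of the 28 stimulated peaks, 0.390 RPM. Its fold enrichment of 3.24 ranked 3793 of 4333. The other peaks had 1.22 RPM inside Trrap, 69.9 kb away, and 0.682 RPM inside Kpna7, 32.8 kb away.

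Smurf2, the ligase that also targets TGF-beta receptors through Smad7, had 4 stimulated and 3 unstimulated peaks in its window (gene body on chromosome 11, 106820061 to 106920747). At least 4 stimulated summits were found for 874 protein-coding genes (3.99%), and at least 3 unstimulated summits for 188 (0.859%). None of the Smurf2 peaks lay inside the gene body, and for none was Smurf2 the nearest protein-coding gene. The 2 tallest stimulated peaks of the 4 genes lay in the gap between Smurf2 and Kpna2, upstream of the Smurf2 start. At 36.8 kb from the body (106957322 to 106957939) the pileup was 1.78 RPM in stimulated and 1.21 RPM in unstimulated cells, with a ratio of 1.47 (1.04 to 2.09). At 47.1 kb (106967616 to 106968103) it was 1.66 and 1.04 RPM in the same order, with a ratio of 1.60 (1.10 to 2.32). These peaks rank 68 and 96 of 4333 by stimulated pileup, and both lie closer to Kpna2, an importin gene. On the other side, a shared peak 82.6 kb away, nearest to Milr1, had a ratio of 1.62 (1.02 to 2.61). A stimulated peak 97.1 kb away, 7.65 kb from the endothelial adhesion gene Pecam1, had no counterpart.

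**Figure D3:**
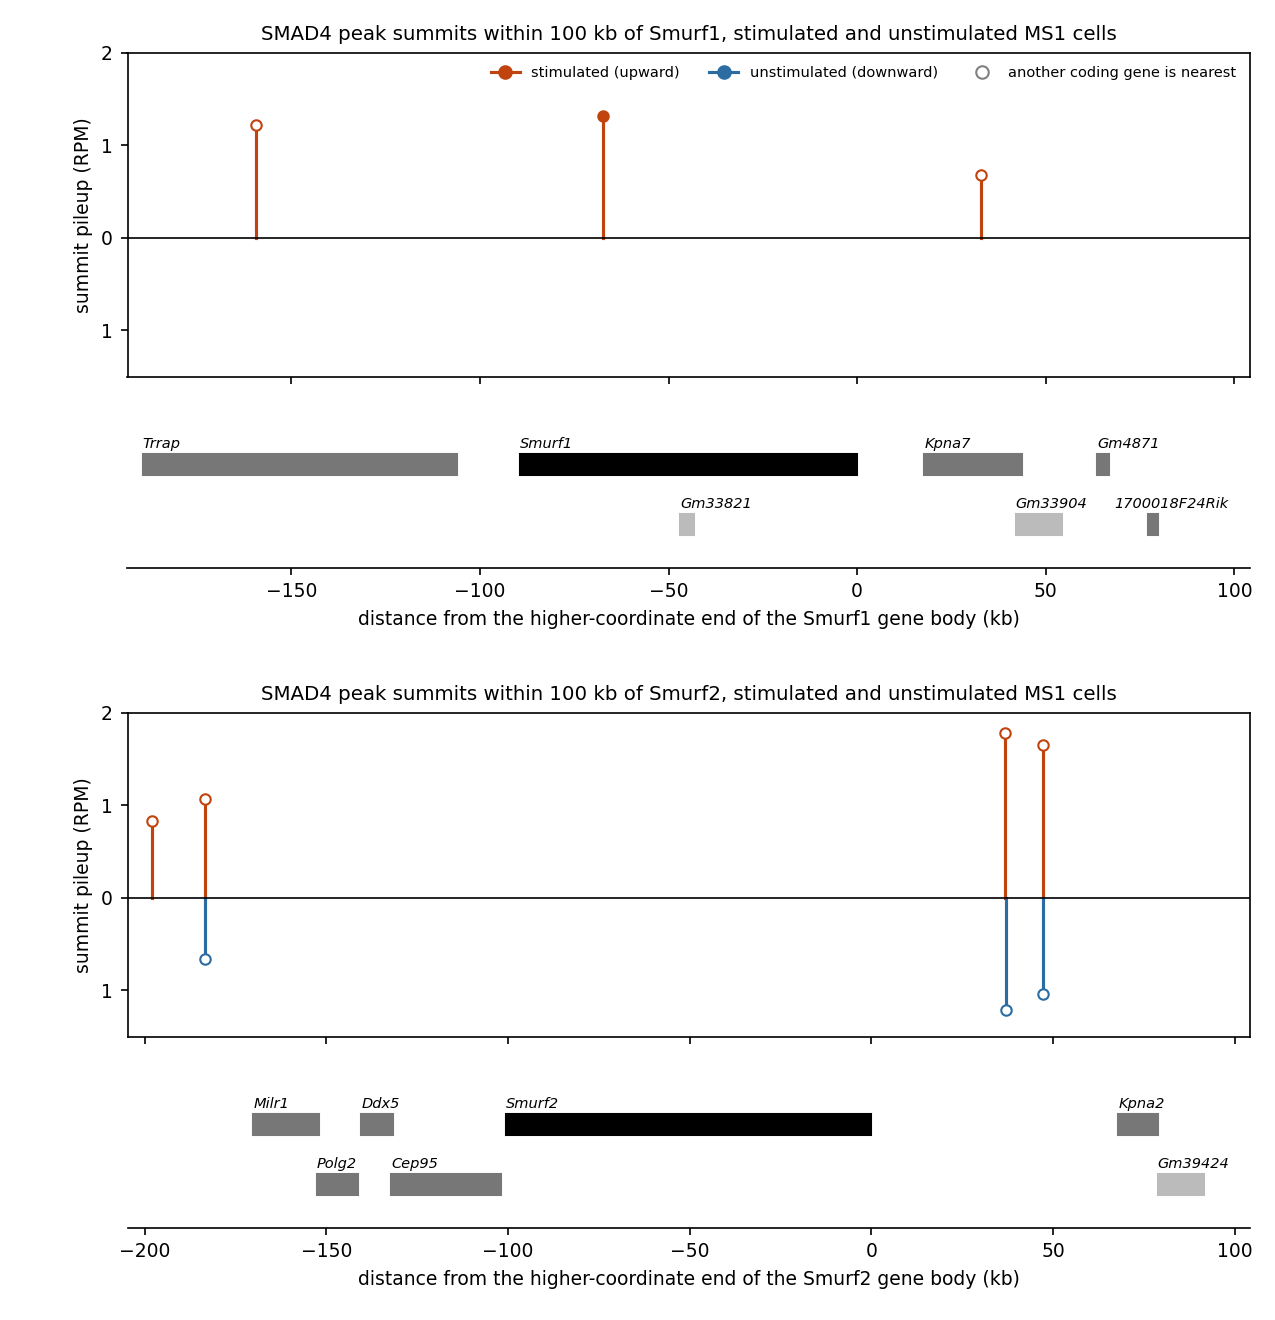
SMAD4 summit pileup in RPM (y axis) at each peak summit within 100 kb of Smurf1 (upper part) and Smurf2 (lower part), against the distance in kb from the higher-coordinate end of the gene body, near the annotated start (x axis). Open circles mark summits nearer to another protein-coding gene: 2 of 3 stimulated summits at Smurf1, and all 4 stimulated (upward) and 3 unstimulated (downward) summits at Smurf2.

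The edge of the window decided little at Smad6, where the farthest stimulated summit inside was at 72.3 kb and the next outside at 247 kb. At Smad7 the farthest stimulated summit inside was at 99.4 kb (0.560 RPM) and the next outside at 107 kb (0.804 RPM). At Smurf2 the corresponding distances were 97.1 kb (0.828 RPM) and 105 kb (1.07 RPM). At Smurf1 they were 69.9 kb and 174 kb.

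All 12 unstimulated peaks of the 4 genes overlapped a stimulated peak by at least 1 bp, against 95.9% of the whole unstimulated list. Of the 28 stimulated peaks, 12 had a counterpart, against 24.9% of the whole stimulated list. By gene, the stimulated peaks with a counterpart were 7 of 11 at Smad6, 2 of 10 at Smad7, 0 of 3 at Smurf1 and 3 of 4 at Smurf2. With summits closer than 1 kb merged, there were 23 stimulated and 10 unstimulated sites. The stimulated list is the longer of the lists. When it was shortened to the 1133 peaks of highest −log10 p, 14 peaks remained in the windows, against 12 unstimulated ones. By gene they were 8 (stimulated) and 7 (unstimulated) at Smad6, 3 and 2 at Smad7, 1 and 0 at Smurf1, and 2 and 3 at Smurf2.

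The shared sites of the 4 genes were higher in stimulated cells by about as much as shared sites in general. The pileup per tag was higher in the stimulated list at 12 of 12 sites, as it was at 98.4% of all shared pairs. The counting interval lay above 1 at 6 of 12 sites, against 36.6% of all shared pairs. Summed over the 12 sites the ratio was 1.55 (1.37 to 1.76), and over all 1078 pairs it was 1.47 (1.45 to 1.49). The medians were 1.58 and 1.47. The interval of the 12 sites holds the value of all pairs. The summed ratio was 1.57 (1.33 to 1.86) at the 7 Smad6 sites, 1.45 (0.968 to 2.17) at the 2 Smad7 sites and 1.55 (1.25 to 1.93) at the 3 Smurf2 sites. These intervals overlap. Sites where a member was the nearest gene had 1.56 (1.31 to 1.86), and the 5 sites nearer to another gene had 1.54 (1.29 to 1.85). The local background per tag had a median ratio of 0.992 over the 12 sites, from 0.509 to 1.81.

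**Figure D4:**
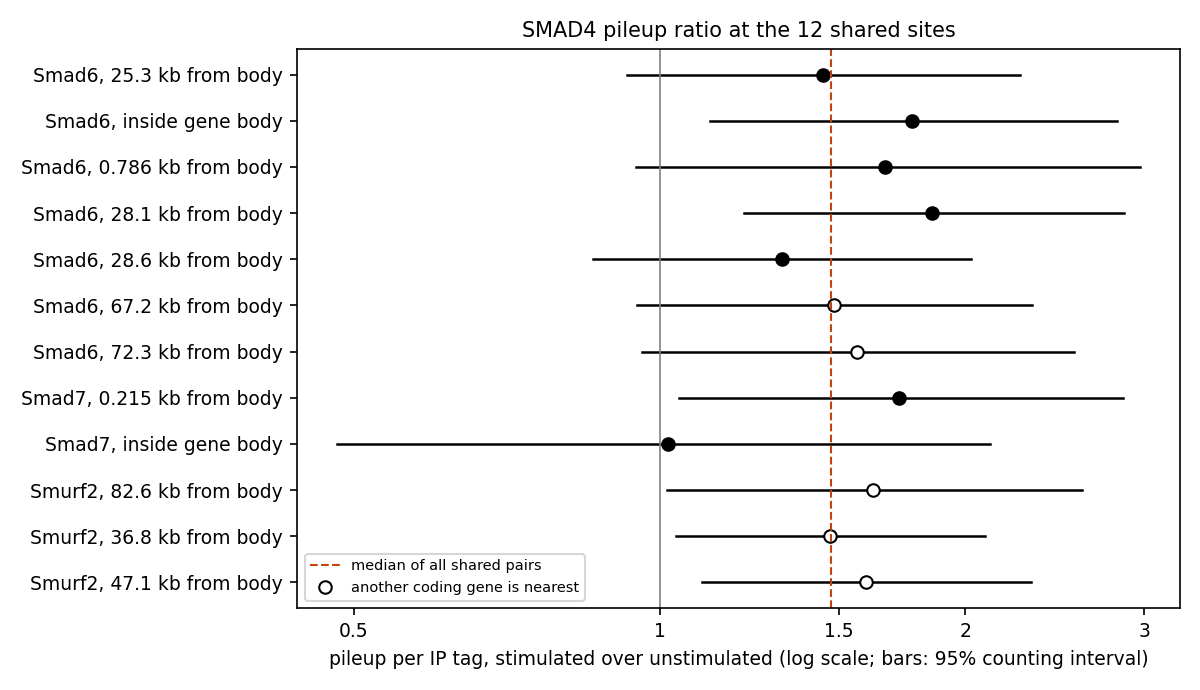
Pileup per IP tag in stimulated over unstimulated cells (x axis, log scale) at the 12 shared sites, listed by gene and distance from the gene body (y axis); bars are 95% counting intervals and the dashed line is the median of all shared pairs, 1.47. The ratios run from 1.02 to 1.85, every interval holds the dashed line, and 6 intervals lie above 1.

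The 16 stimulated peaks of the 4 genes without a counterpart have no unstimulated value in the deposited lists, so no ratio can be given for them and the occupancy of these sites in unstimulated cells was not measured here. Their summits held 15 tags (0.365 RPM, the Smad7 peak 3.36 kb below the gene) to 56 tags (1.36 RPM, the Smad6 peak 8.27 kb upstream), with a median of 0.621 RPM. Their fold enrichments ran from 3.24, at the Smurf1 peak inside the gene, to 8.14, at the Smad7 peak 24.5 kb below the gene. A peak that is missing from the unstimulated list is one that did not pass the caller's limits there, and does not show that SMAD4 was absent.

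Peaks were wider in the stimulated list at all 12 shared sites, which was also the case at 92% of all shared pairs. At these 12 sites the median width was 398 bp in the stimulated and 193 bp in the unstimulated list. The median width ratio was 1.79, against 1.58 over all pairs. The smallest −log10 p of any peak was 5.45 in the stimulated and 6.03 in the unstimulated list. Input tags numbered 59057559 and 72688953 in the same order. Whether widths depend on these differences was not tested. The unstimulated peak lay entirely within the stimulated one at 9 of 12 sites, against 75.8% of all pairs. At Smad6 the width ratio went up to 2.77, at the peak 28.6 kb upstream, where the stimulated peak was 419 bp and the unstimulated peak 151 bp wide. At Smad7 the ratios were smallest, 1.17 and 1.18. Summits moved little: the distance between stimulated and unstimulated summits had a median of 26 bp at the 12 sites and 31 bp over all pairs. It was 3 bp at the Smad6 peak 28.1 kb upstream, 10 bp at the Smad6 start and 32 bp at the Smad7 end peak. The largest shift, 171 bp, was at the peak 36.8 kb from Smurf2. Among stimulated peaks without a counterpart, widths ranged from 100 bp at Smad6 to 735 bp at the Smad7 peak 24.5 kb below the gene, at percentile 99.3 of the widths in the stimulated list.

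**Figure D5:**
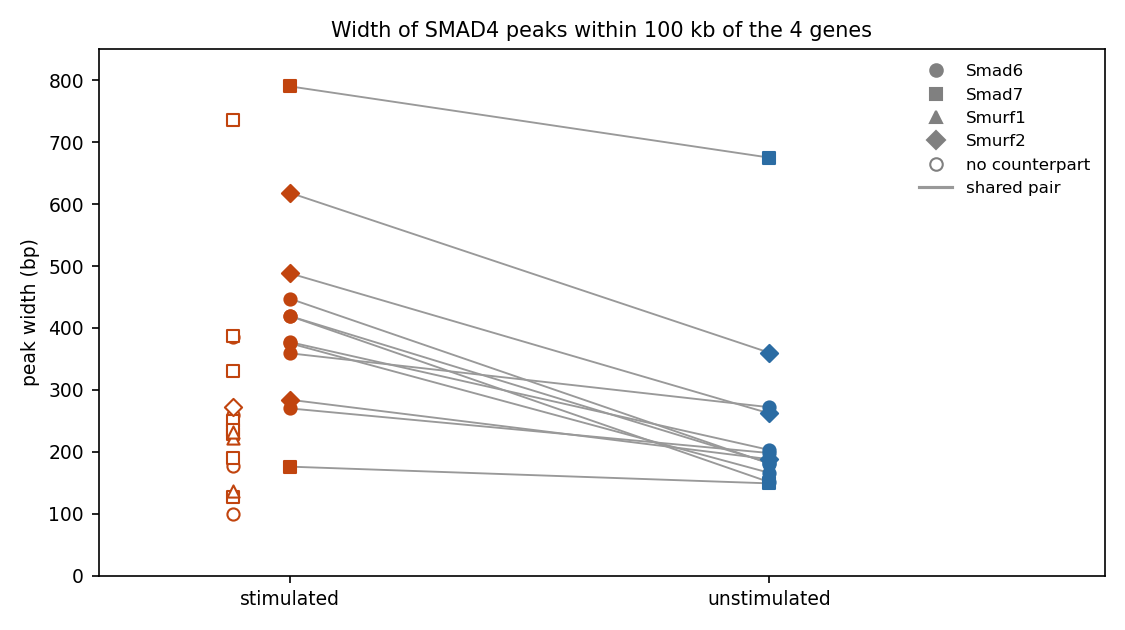
Peak width in bp (y axis) for stimulated peaks (left) and unstimulated peaks (right) within 100 kb of the 4 genes; grey lines join the 12 shared pairs and open symbols, set to the side, are stimulated peaks with no counterpart. Every line falls towards the unstimulated side, with medians of 398 bp and 193 bp.

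Genes most like each member were sought over all protein-coding genes by the sum of absolute differences in 4 values: the number of peaks in each list for which the gene is nearest, and the highest pileup in RPM among them in each list. For Smad6, with 7 stimulated and 5 unstimulated peaks, the closest was Id3, with 6 and 4 in the same order. Hs1bp3 with 8 and 3 and Pmepa1 with 4 and 5 followed. For Smad7, with 7 and 2, the closest were Kdr with 7 and 2, and Mical2 and Dusp6 with 6 and 2 each. All of these had higher top pileups than Smad7. Kdr had 1.80 RPM (stimulated) and 1.13 RPM (unstimulated), against 0.975 and 0.566 RPM at Smad7. For Smurf1, with 1 and 0, the closest were Eif2d, Gfra4 and Nfib, also with 1 and 0. Being nearest to a stimulated peak within 100 kb was found for 12.2% of protein-coding genes, and to an unstimulated one for 3.79%. Smurf2 was nearest to none, so no gene was sought for it.

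Other genes were read from a list of 20 for SMAD inhibition and turnover, which was not restricted to inhibitors. Of these, 10 had a stimulated summit within 100 kb and 9 an unstimulated one, and all 9 had both, which 12.9% of protein-coding genes have. The median gene of the list had 0.5 stimulated and 0 unstimulated summits, and the median over all genes was 0 in each list. The nuclear repressor gene Ski had 4 stimulated and 2 unstimulated peaks within 100 kb, and was the nearest gene for 2 and 1 of them. Its relative Skil had 4 in each list, and was the nearest gene for 2 stimulated and 3 unstimulated ones. Pmepa1, a membrane protein that sequesters receptor SMADs, had 4 stimulated and 5 unstimulated peaks, and the related Ldlrad4 had 3 and 2 in the same order. Fkbp1a, which binds type I receptors, had 3 stimulated and 1 unstimulated peaks, and its shared peak beside the gene (chromosome 2, 151542253 to 151542778) had 1.88 RPM in stimulated and 1.23 RPM in unstimulated cells. At Skil the tallest peak had 1.32 (stimulated) and 0.736 (unstimulated) RPM, and at Pmepa1 the tallest had 1.56 and 0.906 RPM.

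The remaining genes of the list with peaks in both conditions were Strap, Ppm1a, Nedd4l and Usp11, and each of their shared peaks lay nearer to another gene. Nedd4l, a ubiquitin ligase of the same family as the Smurfs, had 1 peak in each list, 79.5 kb away and nearest to Alpk2, with 0.560 RPM in stimulated and 0.585 RPM in unstimulated cells. The ubiquitin ligases Wwp1, Wwp2, Itch, Rnf111 and Stub1 had 0 peaks in either list, as did Rnf11, Usp4, Usp9x, Tob1 and the decoy receptor gene Bambi. The deubiquitinase gene Usp15 had 1 stimulated peak only.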

How the data were processed

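Per the file headers, the authors ran MACS2 2.1.0.20140616 on 2 merged IP libraries against 2 merged input libraries per condition. They kept 1 tag per position, counted each tag over 100 bp and set a q-value limit of 0.01. Tags were 140 bp (stimulated) and 146 bp (unstimulated) long, more than the 100 bp counted. The band width settings were 200 and 300 in the same order, per the file headers. Whether peak widths depend on these settings was not tested. Build mm10, and HOMER beside MACS2, are named in the submitters' processing notes; no aligner is named in the sources read here. The pileup, a coverage signal, was deposited unscaled by the authors and divided here by IP tags. The authors' fold enrichment is a ratio, and −log10 p and −log10 q values, as the authors deposited them, were used to rank and filter peaks. Local background was solved from the fold enrichment. A Poisson tail from it came within 1% of the deposited −log10 p for all 4333 and 1133 peaks.

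An overlap of 1 bp or more made peaks shared, and closest summits were paired, each peak once. Distances run from the summit to the gene body, and the nearest gene was sought among 21887 protein-coding genes, ties kept. For pileup ratios the exact (Clopper-Pearson) binomial interval was used. The code was checked on simulated data. Named were all peaks of the 4 genes, the genes nearest to them, list genes with peaks in both lists and the 3 most alike genes per member. The other list genes and Atad2b were named besides. Members, gene list and motifs were chosen with earlier results of these data known. Python 3.11.15, numpy 2.4.6, pandas 2.3.3, scipy 1.17.1 and matplotlib 3.10.9 were used.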

Additional observations from a re-analysis of the deposited data

How the results depend on the processing

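No paired analysis was possible because each list pools its libraries, and for the same reason no replicate could be left out. Of 38 recomputed summary values, 27 kept within 1.5 times, or within the counting interval, of the value given. At the members, several of these settings removed nothing. A −log10 q of at least 3 left 28 stimulated and 12 unstimulated peaks. An overlap of at least 50% of the shorter peak left 12 peaks with a counterpart in each list. The stimulated count of 28 became 18 with a 50 kb window, 10 with 10 kb, 4 inside gene bodies, 18 at a −log10 q of at least 10 and 14 in the shortened list. The unstimulated count of 12 became 4 with 10 kb, 2 inside gene bodies and 4 at a −log10 q of at least 10. At that q, 4 stimulated and 4 unstimulated peaks had a counterpart. These settings remove peaks by construction. Allowing a gap of 200 bp gave 13 stimulated peaks with a counterpart. Divided by the median of all shared pairs, the summed ratio was 1.05 (0.928 to 1.19), and 4 of the 12 sites fell on the other side of 1: the Smurf2 site at 36.8 kb with 0.998, the Smad6 sites at 25.3 kb with 0.982 and at 28.6 kb with 0.894, and the Smad7 site inside the gene with 0.691. In fold enrichment 2 of 12 did, the Smad6 site 786 bp outside the gene with 0.960 and the Smad7 site inside the gene with 0.983. With the local background subtracted the summed ratio was 1.72, and from fold enrichment 1.57. Of 48 recomputed single-site ratios, 44 stayed within their counting intervals. Of these, 12 used total IP tags, which hardly change a ratio. Summit pileups of 15 to 73 (stimulated) and 19 to 64 (unstimulated) tags limit each site's ratio.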
